A study of Mus musculus with 7 samples.

Results

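The genes described here are the ErbB receptors and their negative regulators: Egfr, Erbb2, Erbb3 and Erbb4, the leucine-rich repeat regulators Lrig1, Lrig2 and Lrig3, and the feedback inhibitor Errfi1. These 8 genes were taken by symbol from a table of read counts for 35976 genes, and all 8 were present. The RNA came from cells of the amygdala of male C57BL/6J mice, enriched for astrocytes with magnetic beads against the astrocyte surface antigen ACSA-2. All mice had received an adeno-associated virus for Cas9, expressed from the GfaABC1D promoter that is active in astrocytes, and a guide RNA against either Egfr (sgEgfr, 3 libraries) or the Rosa26 locus (sgRosa, the control, 4 libraries). After more than 2 weeks of expression, mice of both groups went through tube restraint (7 days), fear conditioning (1 day) and extinction (3 days), so no unstressed group was analysed here. The sources used here do not state the age of the mice, whether each library is a separate mouse, the share of cells that the virus reached, or where in Egfr the guide cuts. The p-values below therefore reflect variation among libraries, which may be technical. Cutting by Cas9 leaves small changes in DNA, and these can disable a protein while its mRNA is still made, so the Egfr mRNA level is not a measure of EGFR protein.

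ErbB receptors are membrane tyrosine kinases that pair up when a ligand of the EGF or neuregulin family binds and then phosphorylate each other. ERBB2 binds no ligand of its own and acts as a partner, and ERBB3 binds neuregulins but has little kinase activity, so each depends on the other receptors. In the brain, EGFR is known from astrocytes and glial precursors, ERBB3 from the oligodendrocyte lineage, and ERBB4 from neurons, above all interneurons. LRIG1 is a membrane protein that speeds the breakdown of ErbB receptors, LRIG2 and LRIG3 are its relatives with less settled roles, and MIG6, the product of Errfi1, is a cytoplasmic protein that is induced by signalling and blocks the EGFR kinase.

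The 4 receptor genes share the code for a kinase domain, and a short stretch of it is shown because it holds a site at which ERBB3, the weak kinase, departs from the others. The stretch was read from the principal transcripts of GENCODE M21 (GRCm38) and spans 63 bases of coding sequence across the junction of exons 19 and 20. Capitals mark the codon of a conserved glutamate in the kinase domain, which is a histidine codon in Erbb3.
Egfr: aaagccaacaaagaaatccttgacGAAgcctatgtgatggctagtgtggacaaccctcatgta
Erbb2: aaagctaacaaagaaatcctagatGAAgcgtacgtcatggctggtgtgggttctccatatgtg
Erbb4: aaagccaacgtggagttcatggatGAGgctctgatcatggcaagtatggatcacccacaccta
Erbb3: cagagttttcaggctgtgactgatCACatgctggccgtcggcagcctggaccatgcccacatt
Against Egfr, with positions counted from 1 at the 5′ end of the stretch, the marked codon carries G25C and A27C in Erbb3 and A27G in Erbb4. Over the whole stretch Erbb2 differs from Egfr at 15 bases, Erbb4 at 22 and Erbb3 at 40. The stretch lies at chr11:16893083-16893106 and chr11:16896894-16896932 in Egfr (plus strand), and at chr11:98433474-98433497 and chr11:98433892-98433930 in Erbb2 (plus strand). In Erbb3 it lies at chr10:128573175-128573198 and chr10:128572906-128572944, and in Erbb4 at chr1:68250580-68250603 and chr1:68198989-68199027, both on the minus strand.

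Library depth ran from 5852870 to 22579222 counts. sgRosa 3 and sgRosa 4 agreed nearly within sampling noise, with a chi-square of 1.04 per degree of freedom where the other 20 pairs of libraries gave 14.8 to 158, and they were summed and counted as 1 sample, sgRosa 3+4. This left 3 samples per guide. Astrocyte markers were present beside a larger share of oligodendrocyte RNA. All 20 listed astrocyte markers were detected in every sample, and together they took 0.674% to 1.72% of the counts in sgRosa and 1.08% to 1.52% in sgEgfr. The 20 markers of myelinating oligodendrocytes took 8.96% to 13.6% in sgRosa and 9.71% to 16.4% in sgEgfr. Markers of oligodendrocyte precursors, microglia, endothelial cells, neurons and ependymal cells each took less than the astrocyte markers in every sample. The 20 neuron markers took 0.0529% to 0.0705% of the counts in sgRosa and 0.0778% to 0.0789% in sgEgfr, and the 19 endothelial markers 0.0214% to 0.0225% and 0.0276% to 0.0310%, so for both lists these shares did not overlap between the groups. As mean log2 CPM, the level used for the relations below, the neuron groups were also apart, but the endothelial groups overlapped (2.95, 2.02 and 1.97 in sgRosa and 2.81, 3.09 and 2.71 in sgEgfr). The levels below are therefore those of a mixed preparation, in which fewer cells of a type and less RNA per cell cannot be told apart.

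All 8 genes were detected in every library and passed the filter on low counts, and none differed between the guides in edgeR's test. Egfr was at 188, 55 and 167 counts in sgRosa 1, 2 and 3+4 and at 169, 87 and 184 counts in sgEgfr 1 to 3. Scaled to the TMM-adjusted library size, as CPM, these were 13.3, 2.87 and 10.6 in sgRosa and 10.7, 5.69 and 8.04 in sgEgfr. All 3 sgEgfr values lay inside the range of the control samples, and sgRosa 2 was the lowest of all. The sgRosa mean was 8.92 ± 5.40 CPM and the sgEgfr mean 8.15 ± 2.51 CPM (SD, n = 3 each), a log2 fold change of -0.13 (SE 0.54, 95% confidence interval -1.39 to 1.14, edgeR adjusted p = 0.997). The interval reached from 0.381-fold to 2.20-fold, and 2-fold changes in either direction of Egfr mRNA lie within it. The mean of log2 CPM gave the opposite sign, 2.92 ± 1.17 in sgRosa against 3.00 ± 0.45 in sgEgfr, since it gives sgRosa 2 more weight. Without sgRosa 2 the edgeR log2 fold change was -0.55, and it was positive without sgRosa 1 (0.27), sgRosa 3+4 (0.02) or sgEgfr 2 (0.06).

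Of 14936 genes tested with edgeR's quasi-likelihood test, 0 were called at an adjusted p under 0.05 (0% of genes), 2.68% had an unadjusted p under 0.05, and for 7.61% the CPM ranges of the guides were apart. Of the 8 genes, 0 were called, 1 had an unadjusted p under 0.05 and 1 had ranges that did not overlap, in both cases Lrig2. DESeq2 and limma-voom also called 0 genes, with 500 and 418 genes at an unadjusted p under 0.05, against 401 with edgeR.

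**Figure D1:**
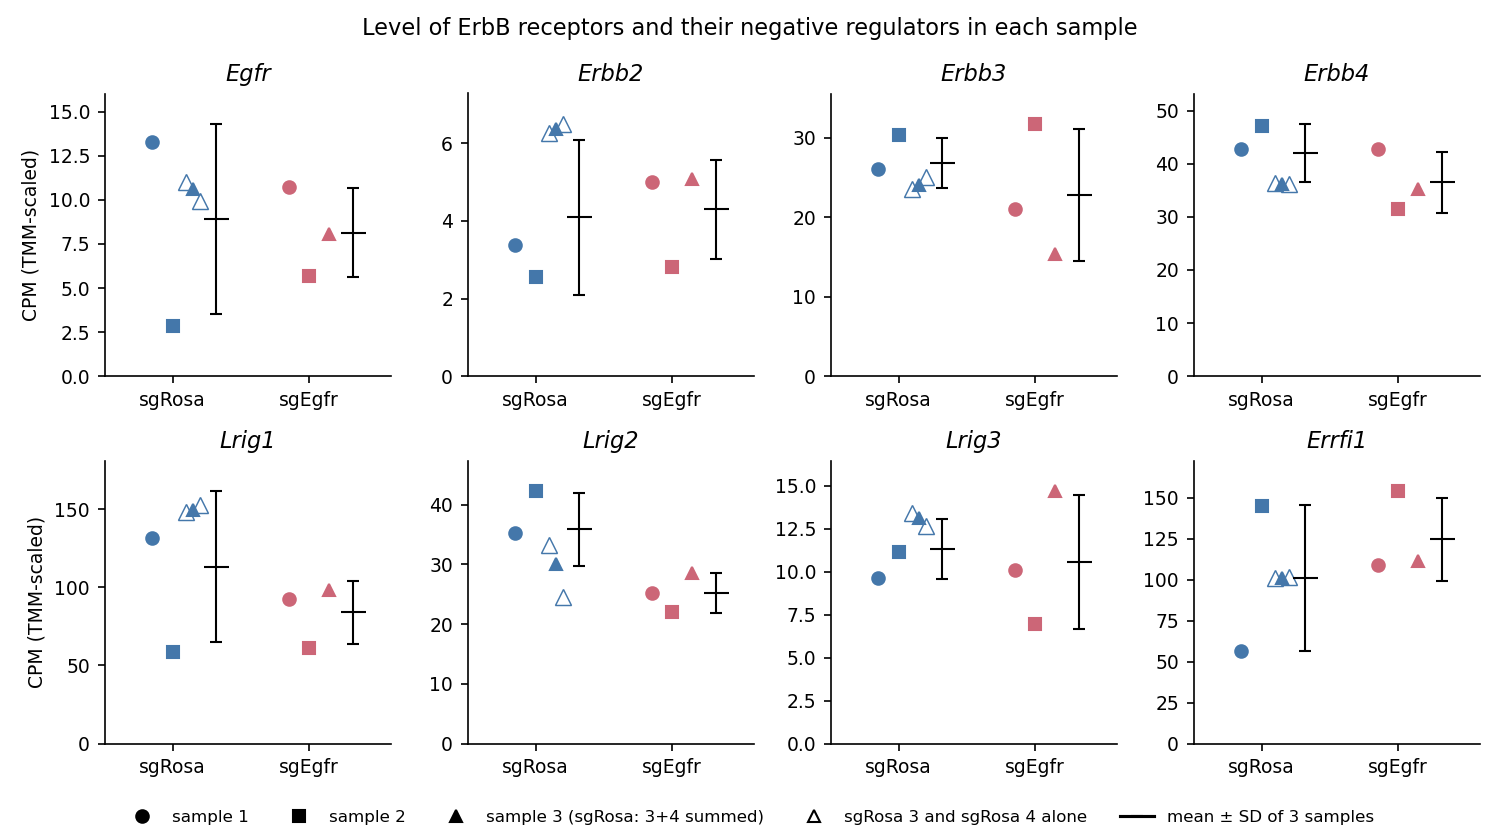
TMM-scaled CPM of each of the 8 genes (vertical axes, starting at 0) in the 3 sgRosa and 3 sgEgfr samples, with the mean and SD of each guide as a black bar and the near-identical libraries sgRosa 3 and sgRosa 4 as open triangles. Lrig2 is the only panel of the 8 in which the filled points of the groups do not overlap, and its sgRosa 4 library alone (24.5 CPM) lies inside the sgEgfr range.

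Among the other receptors, Erbb2, the receptor without a ligand, was the gene with the fewest counts, 38 to 116 per library. Its level was 3.39, 2.56 and 6.36 CPM in sgRosa 1, 2 and 3+4 and 5.01, 2.81 and 5.07 CPM in sgEgfr 1 to 3, so the groups overlapped. The log2 fold change was 0.07 (SE 0.45; 95% interval -0.97 to 1.1), and its sign turned when any of 4 samples was left out.

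Erbb3, the neuregulin receptor of the oligodendrocyte lineage, was at 26.1, 30.3 and 24.1 CPM in sgRosa and at 21.1, 31.7 and 15.4 CPM in sgEgfr. The sgRosa samples lay close together, while the sgEgfr samples held both the highest and the lowest value of the 6. Its log2 fold change was -0.24 (SE 0.27; 95% interval -0.88 to 0.40).

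Erbb4, the neuregulin receptor known from interneurons, was the steadiest of the 8 genes, with a coefficient of variation of 14.9% over the 6 samples. It was at 42.8, 47.1 and 36.2 CPM in sgRosa and at 42.7, 31.5 and 35.3 CPM in sgEgfr, with overlapping groups. The log2 fold change was -0.20 (SE 0.18), and its interval of -0.62 to 0.21 was the narrowest of the 8 genes. Changes to below 0.653-fold or above 1.15-fold lay outside that interval.

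Of the negative regulators, Lrig1, which promotes receptor breakdown, was at 132, 58.7 and 150 CPM in sgRosa and at 92.5, 61.1 and 98.1 CPM in sgEgfr. As for Egfr, sgRosa 2 was the lowest sample, and the other 2 sgRosa samples were above every sgEgfr sample. The log2 fold change was -0.43 (SE 0.35; 95% interval -1.25 to 0.39), and it ranged from -0.75 without sgRosa 2 to -0.18 without sgRosa 3+4.

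Lrig2 was at 35.3, 42.2 and 30.01 CPM in sgRosa and at 25.2, 22.0 and 28.6 CPM in sgEgfr, so that every sgEgfr sample was below every sgRosa sample. The gap between the groups was narrow, from 28.6 CPM in sgEgfr 3 to 30.01 CPM in sgRosa 3+4. The log2 fold change was -0.50 (SE 0.19; 95% interval -0.94 to -0.07, unadjusted p = 0.0291, edgeR adjusted p = 0.997), and this p was the 190th smallest of the 14936 genes. With each sample left out it ranged from -0.61 to -0.37, and it was negative under all 20 alternatives. Lrig2 was also the gene of the 8 that differed most between sgRosa 3 and sgRosa 4: 329 and 143 counts, or 1.36 times as much per total count in sgRosa 3 (exact binomial p = 0.00194, adjusted p = 0.0155 over the 8 genes), a test that compares those libraries' reads only. The other 7 genes gave adjusted p = 0.965 each in that test.

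Lrig3 was at 9.67, 11.1 and 13.2 CPM in sgRosa and at 10.1, 6.94 and 14.7 CPM in sgEgfr, and the sgEgfr samples again held both extremes. Its log2 fold change was -0.10 (SE 0.32; 95% interval -0.85 to 0.66). Errfi1, the inducible inhibitor of the EGFR kinase, was at 56.5, 145 and 101 CPM in sgRosa and at 109, 154 and 111 CPM in sgEgfr. sgRosa 1 was far below the other samples, and the groups overlapped through sgRosa 2. Its log2 fold change was 0.30 (SE 0.33; 95% interval -0.47 to 1.07), 0.02 without sgRosa 1 and 0.66 without sgRosa 2. Each of the 8 genes had an edgeR adjusted p of 0.997.

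**Figure D2:**
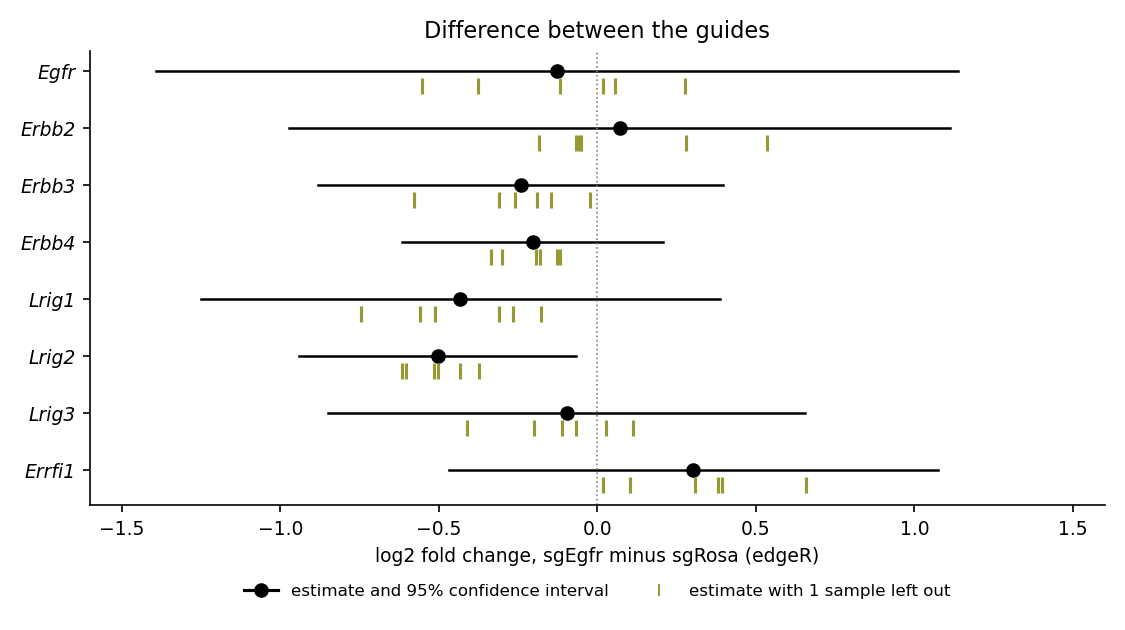
Log2 fold change of each gene (horizontal axis, sgEgfr minus sgRosa) from edgeR with its 95% confidence interval as a black line, and the estimates with each sample left out as ticks. The interval of Lrig2 (-0.94 to -0.07) lies below 0, and those of the other 7 genes span 0.

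The level of 15 heat shock genes, which cell dissociation can induce, was set beside these values without computing a correlation. This level, as mean log2 CPM, was 6.27, 6.91 and 6.83 in sgRosa 1, 2 and 3+4 and 6.86, 7.15 and 7.06 in sgEgfr 1 to 3, lowest in sgRosa 1 as for Errfi1. sgEgfr 2 and sgEgfr 3 were above every sgRosa sample, so the covariate is partly bound up with the guide. With this level as a covariate the log2 fold change of Errfi1 was -0.26 and that of Egfr 0.69, without a call; the part of such induction in either value was not tested.

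The spread of every gene exceeded counting error. The coefficient of variation over the 6 samples was 44.4% for Egfr, where counts alone would give 9.34%, and 35.9% for Erbb2, where counts alone would give 12.6%. For Lrig1 it was 37.2% against 2.60% and for Errfi1 30.9% against 2.46%. Egfr varied 4.62-fold from its lowest to its highest sample, more than any of the other 7 genes (1.497-fold for Erbb4 to 2.73-fold for Errfi1), and the 55 counts behind its lowest value have an exact Poisson interval of 41.4 to 71.6. Such intervals cover counting error only.

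To compare the genes with each other, CPM was divided by the length of all annotated exons of a gene in GENCODE M21, 3.58 kb for Errfi1 to 12.4 kb for Erbb4. On this scale of CPM per kb, the inhibitors Errfi1 (31.5 ± 9.73) and Lrig1 (17.7 ± 6.56) stood highest (mean ± SD, n = 6 samples, both guides). Erbb3 (4.12 ± 1.01) and Erbb4 (3.18 ± 0.47) followed, then Lrig2 (2.60 ± 0.62) and Lrig3 (1.31 ± 0.33). Erbb2 (0.81 ± 0.29) and Egfr (0.75 ± 0.33), the receptor that the study targeted, were lowest.

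Of the 28 pairs of genes, 24 had the same order in all 6 samples, both guides pooled. Each of these pairs had an exact two-sided sign-flip permutation p of 0.03125 and an adjusted p of 0.0365 over the 28 pairs. That p is the smallest that 6 samples allow and follows from the order itself, so it adds nothing to the count. In sgRosa samples alone 25 of 28 pairs kept the order of the means, and in sgEgfr samples alone 27. There 0 pairs had a sign-flip p under 0.05, which 3 samples cannot give. Neighbours not separated beyond their spread were Errfi1 and Lrig1, Erbb3 and Erbb4 (the former higher in 5 of 6 samples for each, adjusted exact permutation p = 0.0972), and Erbb2 and Egfr (5 of 6, adjusted exact permutation p = 0.438). Lrig3 and Egfr, which are not neighbours, also kept no single order (5 of 6, adjusted exact permutation p = 0.07). The length matters most for Lrig2 and Lrig3, and the annotation that the authors counted with is not known here. With the length of the principal transcript, an alternative added after the data were seen, Lrig2 stood at 4.30 CPM per kb, above Erbb3 at 4.12 and Erbb4 at 3.33, each of which was higher than Lrig2 in 1 of 6 samples. Lrig3 stood at 2.73 CPM per kb on that length, and 21 of 28 pairs kept 1 order.

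**Figure D3:**
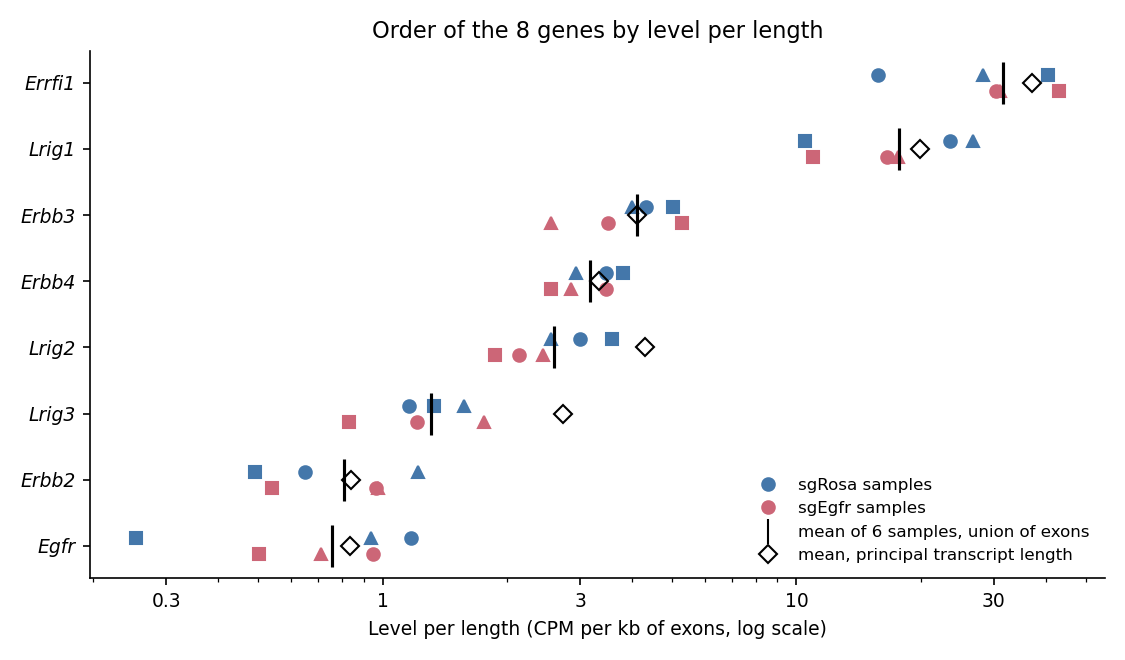
Level per length of the 8 genes (CPM per kb of exons, log axis) in the 3 sgRosa and 3 sgEgfr samples, ordered by the mean of the 6 samples (black bar), with the mean for the principal transcript length as a diamond. Errfi1 and Lrig1 lie at 10.5 CPM per kb or above in every sample, while Erbb2 and Egfr lie at 1.22 or below; the diamond of Lrig2 is to the right of those of Erbb3 and Erbb4, the reverse of their bars.

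Among the 4 receptors, Erbb3 and Erbb4 together made up most of the receptor mRNA per length. Erbb3 had a share of 45.1%, 52.5% and 44.0% of the summed level in sgRosa 1, 2 and 3+4 and of 39.5%, 59.5% and 36.0% in sgEgfr 1 to 3. Erbb4 had 36.0% ± 3.75 in sgRosa and 36.0% ± 6.32 in sgEgfr (SD, n = 3 each). Egfr had 12.2%, 2.64% and 10.3% in sgRosa and 10.7%, 5.67% and 10.01% in sgEgfr, and Erbb2 had 5.12% to 13.7% over the 6 samples. The summed level of the receptors was 9.44 ± 0.30 CPM per kb in sgRosa and 8.28 ± 1.02 in sgEgfr, with sgEgfr 3 lowest at 7.10. sgRosa 2 and sgEgfr 2, which had different guides, held the largest shares of Erbb3 and the smallest of Egfr, but Erbb4 had 39.7% in sgRosa 2 and 28.7%, its smallest share, in sgEgfr 2.

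**Figure D4:**
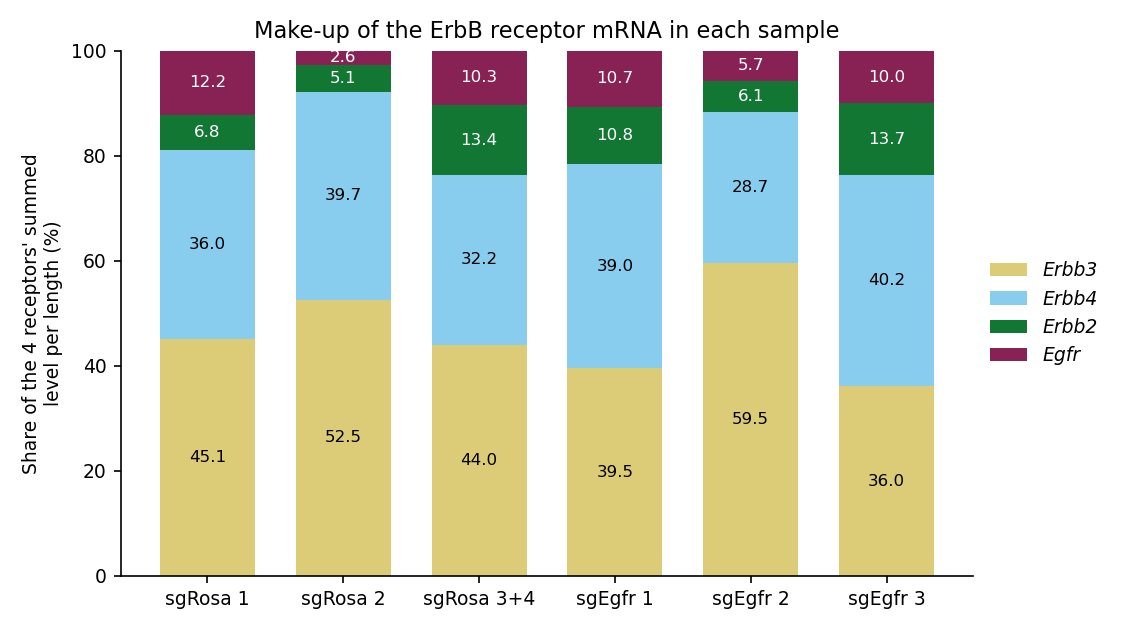
Share of each receptor in the summed level per length of the 4 receptors (vertical axis, percent) in each of the 6 samples, with the value printed in each segment. Erbb3 and Erbb4 fill most of every bar, and Egfr ranges from 2.6% in sgRosa 2 to 12.2% in sgRosa 1.

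Ratios between receptors within a library do not depend on scaling, and for each of the 6 receptor pairs the values of the guides overlapped. The log2 ratio of Egfr to Erbb3 counts was -0.97, -3.39 and -1.18 in sgRosa 1, 2 and 3+4 and -0.97, -2.47 and -0.93 in sgEgfr 1 to 3. sgRosa 2 and sgEgfr 2 stood apart from the other 4 samples, and the groups overlapped. The difference was 0.39 (exact two-sided permutation p = 0.5). For Egfr and Erbb4 it was 0.30 (exact permutation p = 1), and for Egfr and Erbb2, the partner receptor, it was -0.03 (exact permutation p = 0.9). Over the 6 receptor pairs the adjusted p was 1 for each, and 3 samples against 3 cannot give a p below 0.1.

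The ratio of Erbb3 to Erbb4, the neuregulin receptors, had log2 values of -0.71, -0.64 and -0.59 in sgRosa and of -1.02, 0.01 and -1.20 in sgEgfr. The mean was alike, -0.65 ± 0.06 against -0.73 ± 0.65 (SD, n = 3 each), a difference of -0.09 (exact permutation p = 1). The sgRosa samples lay between the sgEgfr samples; the difference in spread was not tested.

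The ratio of inhibitor mRNA to Egfr mRNA per length varied widely between samples and inhibitors. Lrig1 was 17.5 to 41.4 times the level of Egfr per length over the 6 samples, and Errfi1 13.5 to 160 times, with 13.5 in sgRosa 1 and 160 in sgRosa 2. Lrig2 was 2.26 to 14.2 times the level of Egfr, and Lrig3 0.989 times, in sgRosa 1, to 5.25 times, in sgRosa 2. On the log2 scale the ratio of Errfi1 to Egfr was 5.33 ± 1.82 in sgRosa and 5.63 ± 0.72 in sgEgfr, and that of Lrig1 to Egfr 4.85 ± 0.52 and 4.401 ± 0.25 (SD, n = 3 each). In both cases the groups differed by less than the spread of the sgRosa samples.

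Egfr and Lrig1 tended to be high in the same samples, and Errfi1 in the others, but no relation held after adjustment. Over 6 samples Egfr and Lrig1 had r = 0.86 (exact permutation p = 0.0278; rho = 0.71, p = 0.136) and Lrig1 and Errfi1 had r = -0.79 (exact permutation p = 0.0458; rho = -0.83, p = 0.0583). Egfr and Errfi1 had r = -0.77 (exact permutation p = 0.0889; rho = -0.89, p = 0.0333). Over the 28 pairs of genes the adjusted permutation p of r was 0.456 for each of these, that of rho 0.544, 0.408 and 0.408, and 0 pairs passed 0.05. Centred within each guide, r was 0.94, -0.75 and -0.87. Without the 2 samples farthest from the median of the former gene, the values were 0.51, -0.94 and -0.81, so the relation of Egfr with Lrig1 rested largely on sgRosa 2 and sgEgfr 2.

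The 8 genes were also set against the levels of 7 cell type marker lists, 56 relations of which 0 passed an adjusted permutation p of 0.05 and 6 had an unadjusted p of r under 0.05. Egfr had its largest r with the astrocyte markers (r = 0.86, exact permutation p = 0.0458; rho = 0.60, p = 0.242; adjusted p of r = 0.375), and 0.89 centred within each guide. Without sgRosa 2 and sgRosa 3+4 this r was 0.30, so it rested on those samples. Erbb2 had r = 0.83 with the astrocyte markers (exact permutation p = 0.0111; rho = 0.94, p = 0.0167; adjusted p of r = 0.375), 0.84 centred within each guide and 0.89 without the same 2 samples. Its largest r was with the ependymal markers (0.88, exact permutation p = 0.0278; rho = 0.94, p = 0.0167; adjusted p of r = 0.375), 0.88 centred and 0.95 without sgRosa 2 and sgEgfr 3.

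Erbb3 had its largest r, a negative one, with the ependymal markers (-0.87, exact permutation p = 0.0194; rho = -0.89, p = 0.0333; adjusted p of r = 0.375), -0.88 centred and -0.64 without sgRosa 2 and sgEgfr 3. The 12 ependymal markers took 0.00402% to 0.151% of the counts, highest in sgEgfr 3. With the oligodendrocyte markers Erbb3 had r = 0.81 (exact permutation p = 0.0528; rho = 0.71, p = 0.136), 0.84 centred and 0.55 without sgRosa 2 and sgEgfr 2. This relation was named for its cell type, after its value was seen. Egfr had r = -0.81 with the oligodendrocyte markers (exact permutation p = 0.0431; rho = -0.60, p = 0.242; adjusted p of r = 0.375), -0.81 centred and 0.43 without sgRosa 2 and sgEgfr 2, so its sign rested on those samples. For Errfi1 the largest r was with microglia markers (0.87, exact permutation p = 0.0292; rho = 0.83, p = 0.0583; adjusted p of r = 0.375), 0.84 centred and 0.68 without sgRosa 1 and sgEgfr 2, and these markers took at most 0.0540% of the counts.

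Lrig2, the gene whose groups did not overlap, had its largest r with the neuron markers (-0.81, exact permutation p = 0.0569; rho = -0.94, p = 0.0167; adjusted p of r = 0.375), -0.95 without sgRosa 2 and sgRosa 3+4. The neuron markers were also apart between the groups, and centred within each guide r was -0.34; their part in the Lrig2 value was not tested. Lrig1 had its largest r with the oligodendrocyte markers (-0.80, exact permutation p = 0.0639; rho = -0.77, p = 0.103), which was -0.90 centred and 0.12 without sgRosa 2 and sgEgfr 2, so its sign rested on those samples. For Lrig3 it was with the ependymal markers (0.74, exact permutation p = 0.0875; rho = 0.66, p = 0.175), 0.82 centred and 0.98 without sgRosa 2 and sgEgfr 3. Erbb4 had its largest r, -0.53, with the neuron markers (exact permutation p = 0.283; rho = -0.71, p = 0.136), -0.18 centred within each guide and -0.68 without sgRosa 2 and sgRosa 3+4.

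Relative to the astrocyte markers, a scale added after the data were seen, Egfr varied less: log2 CPM of Egfr minus the mean of the markers was -4.74, -6.02 and -5.51 in sgRosa and -5.31, -5.92 and -5.58 in sgEgfr. The range over the 6 samples fell from 2.16 to 1.29 on the log2 scale. The group means were -5.42 ± 0.65 and -5.60 ± 0.30 (SD, n = 3 each), and the groups overlapped. With the level of the astrocyte markers as a covariate the log2 fold change of Egfr was -0.42 (edgeR adjusted p = 0.986).

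**Figure D5:**
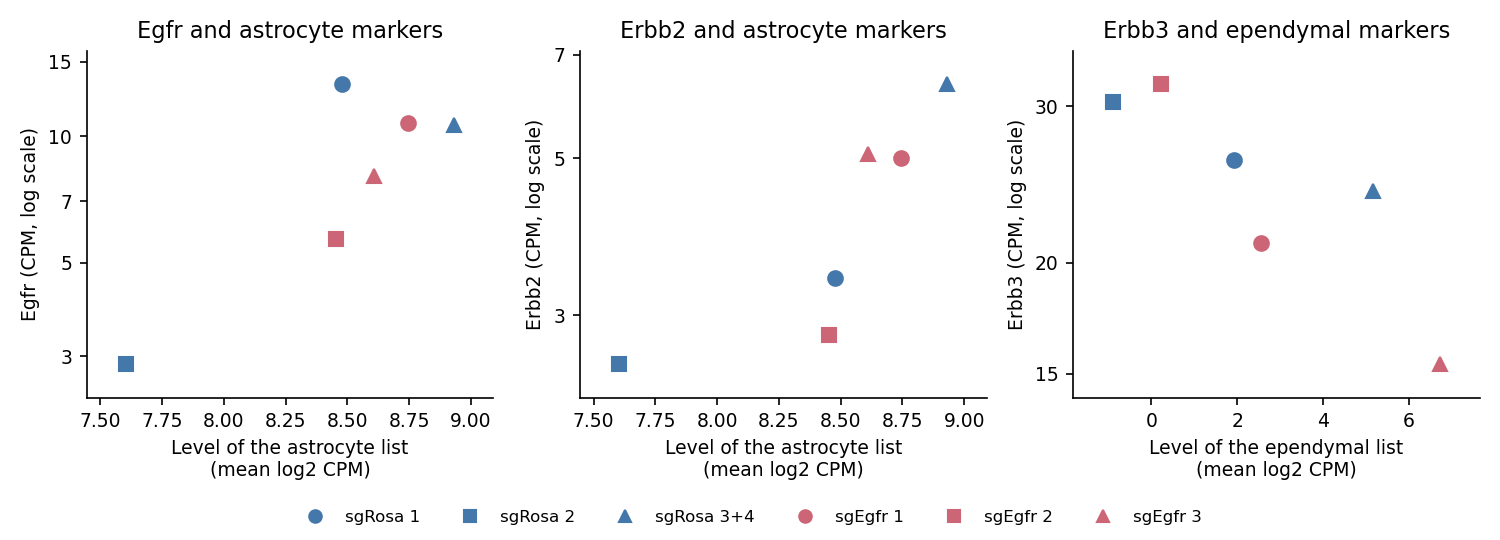
Levels of Egfr and Erbb2 against the astrocyte list and of Erbb3 against the ependymal list in the 6 samples (horizontal axes, mean log2 CPM of the list; vertical axes, CPM on a log scale). sgRosa 2 is lowest in astrocyte markers, in Egfr (2.87 CPM) and in Erbb2 (2.56 CPM), and sgEgfr 3 is highest in ependymal markers and lowest in Erbb3 (15.4 CPM).

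The genes whose log2 CPM was most like each of the 8, by Pearson r over the 6 samples among 10819 genes with a mean of at least 5 CPM, are given as a description. With 6 samples many genes reach a high r, and 0.767% to 2.71% of genes had r over 0.9 with a given gene. For Egfr the top 3 were Etnppl (r = 0.990), Ctnnd2 (0.988) and Arhgef26 (0.985). For Erbb2 they were Mmp14, Zfp868 and Ltbp1 (0.993 each), and for Erbb3 Fdxacb1 (0.994), Trappc4 (0.993) and Epg5 (0.993). Erbb4 was most like BC068281 (0.981), Zbtb24 (0.980) and Dot1l (0.980). Lrig1 was most like Plcd1 (0.996), Cluh (0.994) and Gnai2 (0.992), Lrig2 like Lrrc8d (0.997), Stk39 (0.994) and Arhgap23 (0.992), and Lrig3 like Gas2l1 (0.992), Gm7120 (0.982) and Rai1 (0.982). Errfi1 was most like Mettl7a1 (0.997), Gins3 (0.995) and 5033421B08Rik (0.995).

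The rest of the pathway did not differ between the guides in edgeR's test either. Of 11 ligand genes of the EGF and neuregulin families, 6 passed the filter, 3 with positive and 3 with negative log2 fold changes and a median of -0.02, where the median of all genes tested was 0.02. Btc, a ligand of EGFR and ERBB4, was at 1.69, 7.26 and 5.79 CPM in sgRosa and at 1.33, 2.09 and 2.19 CPM in sgEgfr, and sgRosa 1 lay inside the sgEgfr range. Nrg1, a ligand of ERBB3 and ERBB4, was at 7.34, 3.19 and 2.86 CPM in sgRosa and at 6.02, 6.61 and 9.05 CPM in sgEgfr. Hbegf, a ligand of EGFR, was at 37.0 ± 12.6 and 40.5 ± 6.76 CPM (SD, n = 3 each). The log2 fold changes were -1.39, 0.70 and 0.13.

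Of 28 genes for adaptors and relay proteins that bind activated receptors, 26 were tested, 12 with positive and 14 with negative values and a median of -0.03. Gab1, a docking protein downstream of EGFR, was at 304, 359 and 233 CPM in sgRosa and at 194, 188 and 206 CPM in sgEgfr, so every sgEgfr sample was below every sgRosa sample. Its log2 fold change was -0.61 (SE 0.19, unadjusted p = 0.0154, edgeR adjusted p = 0.997). Stat5a, a transcription factor that receptor kinases activate, also had groups that did not overlap, 6.99 to 9.95 CPM in sgRosa and 3.87 to 5.07 CPM in sgEgfr, and a log2 fold change of -0.81 (SE 0.29). Sos2, an exchange factor for RAS, had -0.36 (SE 0.20) with overlapping groups. In this list 3 of 26 genes (Gab1, Stat5a and Pik3r1) had ranges that did not overlap, beside the 7.61% of all genes.

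Of 27 genes for ubiquitin ligases and endocytic sorting of the receptors, 26 were tested, 13 positive and 13 negative, with a median of -0.01. Those with the smallest p were the ubiquitin ligase Itch (-0.28, SE 0.15), the early endosome GTPase Rab5a (-0.19, SE 0.17) and the sorting factor Hgs (-0.13, SE 0.13). Of 14 genes for the release of ligands from the membrane, 13 were tested, 6 positive and 7 negative, with a median of -0.03. The metalloproteases Adam10 and Adam19 had -0.48 (SE 0.21) and -0.60 (SE 0.31), and Timp3, an inhibitor of such proteases, had 0.25 (SE 0.25). No gene of these 4 lists was called. CPM ranges did not overlap for 0 of 6 ligands and 3 of 26 adaptors and relay genes. For ligase and sorting genes it was 1 of 26 (Hgs) and for release genes 1 of 13 (Furin), beside the 7.61% of all genes. An unadjusted p under 0.05 was found for 1 of 6 ligands (Btc), 2 of 26 adaptors and relay genes (Gab1 and Stat5a), 0 of 26 ligase and sorting genes and 0 of 13 release genes, beside the 2.68% of all genes.

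All 8 genes lie on GRCm38 in places where little of their exons is shared with another gene, by GENCODE M21. Egfr (chr11:16752203-16918158), Erbb2 (chr11:98412470-98437716), Lrig3 (chr10:125966168-126015359) and Errfi1 (chr4:150853919-150868892) are on the plus strand. Erbb3 (chr10:128567523-128589652), Erbb4 (chr1:68032186-69108059), Lrig1 (chr6:94604529-94700158) and Lrig2 (chr3:104396418-104511918) are on the minus strand. Exons of other genes, on the opposite strand, cover 144 bases of Lrig1 (2.58% of its exons, Slc25a26) and 9 bases of Erbb2 (Mien1), and for the other 6 genes no exon overlap was found.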

How the data were processed

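RNA-seq of 7 libraries was used. The authors deposited raw read counts per gene as 1 table of 35976 genes and as 7 single files, which held the same counts. Build mm10, fastp 0.23.2, STAR 2.7.5c and featureCounts 2.0.1 are named for these counts, per the submitters' processing notes. Annotation, strand and multi-mapping settings are not given in the sources used here, which leaves counts of overlapping genes uncertain.

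Counts of sgRosa 3 and 4 were summed, after all pairs of libraries were compared by chi-square (genes with 20 counts or more per pair). Genes were filtered with filterByExpr (minimum count 10, minimum total 15), scaled with TMM and tested with glmQLFTest in edgeR 4.0.16 (R 4.3.3), guide as the only term, with Benjamini-Hochberg adjustment over 14936 genes. The edgeR steps were tested on simulated counts with 200 genes changed (5 runs). They called 20.6% of 2-fold, 64.8% of 4-fold and 90% of 8-fold changes, so most simulated 2-fold changes went uncalled. The simulated counts were drawn independently per gene at the variation that edgeR's trend gives for its level. The variation estimated for the gene itself was above that trend for Egfr, Lrig1 and Errfi1. It was below the trend for Erbb2, Erbb3, Erbb4, Lrig2 and Lrig3, so these rates may not hold for the 8 genes. Log2 CPM used a prior count of 2, and lists were scored by averaging log2 CPM over their genes. Receptor ratios used a pseudocount of 0.5. Exact permutation tests were two-sided. Sequences and exon lengths came from GENCODE M21.

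The genes and lists were chosen with earlier results of these data known. Genes named outside the 8 were the 3 with the smallest p per list and the 3 most alike by r, and for marker relations the list with the largest r per gene, with 3 more relations added after their values were seen. Alternatives were other scaling (RLE, library totals), filters, DESeq2 1.42.0, limma-voom (limma 3.58.1), the replicate block, the 7 libraries apart, sgRosa 3 or 4 alone, covariates for 4 lists, and each sample left out.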

Additional observations from a re-analysis of the deposited data

How the results depend on the processing

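The count of called genes was 0 in each direction under all 20 alternatives, with 186 to 960 genes at an unadjusted p under 0.05. Of 160 alternative log2 fold changes of the 8 genes, 17 had the opposite sign and 0 were called; those of Erbb3, Erbb4, Lrig1 and Lrig2 were negative throughout. With each sample left out, Erbb3 ranged from -0.58 to -0.02 and Erbb4 from -0.34 to -0.12, and Lrig1 had -0.10 with the heat shock covariate. Egfr had 0.18 with limma-voom and 0.69 with the heat shock covariate, and -0.55 to 0.27 with each sample left out. Erbb2 had -0.11 with the 7 libraries apart, -0.12 with the astrocyte and -0.012 with the oligodendrocyte covariate, and -0.18 to 0.53 with each sample left out. Lrig3 had 0.22 with the endothelial covariate and -0.41 to 0.11 with each sample left out, and Errfi1 had -0.26 with the heat shock and 0.88 with the endothelial covariate.

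Of 54 alternative differences in receptor ratios, 8 changed sign. Except with the 7 libraries apart, the samples were too few for the exact test to pass 0.05. In those other alternatives the test says nothing about stability. Egfr/Erbb2 had 0.037 with the 7 libraries apart. With each sample left out, Egfr/Erbb2 ranged from -0.43 to 0.47, Egfr/Erbb3 from -0.38 to 0.89, Egfr/Erbb4 from -0.47 to 0.70, Erbb2/Erbb4 from -0.041 to 0.80 and Erbb3/Erbb4 from -0.46 to 0.14. The cause of these changes of sign was not tested. The largest marker correlation of each gene kept its sign when centred within guide and with shares of counts in place of levels (16 values), but that of Lrig1 turned to 0.12 without sgRosa 2 and sgEgfr 2.

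Same-numbered samples were not paired by the labels, and for that reason the numbers were not taken as pairs. The deviations of same-numbered samples from the group means had correlations of -0.11, 0.52 and 0.55. Samples of different numbers had -0.58 (sgRosa 2 with sgEgfr 3) to 0.26 (sgRosa 2 with sgEgfr 1). Deviations from a mean of 3 samples sum to 0 for each gene, so these correlations are tied. The positive values for numbers 2 and 3 are therefore not separate matches. sgRosa 2 and sgEgfr 2 had the lowest astrocyte marker share of their groups (0.674% and 1.08%). They also had the highest oligodendrocyte marker share (13.6% and 16.4%). Whether same-numbered samples share a batch was not tested. With the replicate block 705 genes had an unadjusted p under 0.05 against 401 without it, 0 were called, and Egfr had 0.060.

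Limits are the 3 samples per guide and, for Egfr and Erbb2, fewer than 200 counts per library.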
